A study of Mus musculus with 72 samples.

Results

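The daily time course of the tibialis anterior was measured in control mice with 18 arrays, which are 18 of the 72 arrays of the study. The tibialis anterior (TA) is a fast muscle of the front of the lower leg, and the arrays were chosen by their labels, as every TA sample of a control animal. The animals were male C57BL/6 mice aged 5 months, kept at 22 °C on 12 h of light and 12 h of dark with chow and water freely available. TA was taken at 6 Zeitgeber times (ZT, hours after lights on) from ZT0 to ZT20, 4 h apart, from 3 animals at each time, and lights went off at ZT12. Control animals (Ctrl) had no Cre, and the labels do not say whether they carried the floxed Bmal1 alleles of their littermates. For comparison, 18 arrays of the soleus (SOL) of the same control animals were used, and 18 arrays of TA from littermates (mKO) of the same strain, age, sex and times, in which a Cre under the Mlc1f promoter acted on floxed Bmal1. SOL is a slow postural muscle. The series asked how the muscle clock shapes the muscle transcriptome, and the comparison here is between times of day within control TA.

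Almost every cell of the body holds a molecular clock. In its main loop BMAL1, encoded by Arntl, pairs with CLOCK or NPAS2 and switches on genes with E-boxes in their regulatory DNA, among them the Per and Cry genes, whose proteins later block the pair. A side loop runs through the REV-ERB receptors, encoded by Nr1d1 and Nr1d2, which silence Arntl and Nfil3 through ROR elements that the ROR receptors also bind. Output runs through factors such as DBP, TEF and HLF, which activate genes at D-boxes, and NFIL3, which represses them there. Skeletal muscle takes up much of the glucose of a meal and burns fatty acids between meals, and mice eat mostly in the dark.

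Promoters are shown for 6 genes of the clock lists used below, which were picked by amplitude within their part of the day. All of those shown hold some of these letters, while others searched hold none. The daily swings of the 6 differ in size, with amplitudes (mean to peak, log2) from 0.30 for Bhlhe41 to 1.34 for Ciart. Each line runs 5′ to 3′ on the gene's strand and covers 300 bases, from 250 before to 50 after the start, in RefSeq's annotation of GRCm38.p6. Capitals mark the E-box CACGTG, the D-boxes TTATGTAA and TTACGTAA, or the ROR element core, TAGGTCA or TGGGTCA, each searched on both strands, and the CACGTG reads the same on both. Arntl (second start) lies at chr7:113207261-113207560 on the plus strand and Nfil3 at chr13:52980990-52981289 on the minus strand. Ciart lies at chr3:95882179-95882478 on the minus strand, Per1 (first start) at chr11:69098699-69098998 on the plus strand, Bhlhe41 at chr6:145865371-145865670 on the minus strand and Coq10b at chr1:55052520-55052819 on the plus strand.
Arntl: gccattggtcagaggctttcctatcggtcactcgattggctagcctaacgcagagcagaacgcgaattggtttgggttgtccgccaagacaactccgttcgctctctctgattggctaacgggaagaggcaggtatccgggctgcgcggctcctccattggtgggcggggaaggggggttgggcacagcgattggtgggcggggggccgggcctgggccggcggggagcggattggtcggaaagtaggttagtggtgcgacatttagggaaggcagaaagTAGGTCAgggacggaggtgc
Nfil3: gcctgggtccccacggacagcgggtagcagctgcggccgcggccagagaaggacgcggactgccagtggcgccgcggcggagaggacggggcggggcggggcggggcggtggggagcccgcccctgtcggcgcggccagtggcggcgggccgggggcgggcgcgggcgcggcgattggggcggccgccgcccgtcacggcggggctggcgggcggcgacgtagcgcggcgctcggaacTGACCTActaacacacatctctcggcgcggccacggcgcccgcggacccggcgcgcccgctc
Ciart: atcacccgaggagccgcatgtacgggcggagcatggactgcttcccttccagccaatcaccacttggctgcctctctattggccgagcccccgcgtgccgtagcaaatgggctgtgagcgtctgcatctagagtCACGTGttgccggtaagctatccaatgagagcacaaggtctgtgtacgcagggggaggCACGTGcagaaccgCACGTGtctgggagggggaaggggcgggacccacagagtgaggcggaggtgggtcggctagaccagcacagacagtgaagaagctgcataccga
Per1: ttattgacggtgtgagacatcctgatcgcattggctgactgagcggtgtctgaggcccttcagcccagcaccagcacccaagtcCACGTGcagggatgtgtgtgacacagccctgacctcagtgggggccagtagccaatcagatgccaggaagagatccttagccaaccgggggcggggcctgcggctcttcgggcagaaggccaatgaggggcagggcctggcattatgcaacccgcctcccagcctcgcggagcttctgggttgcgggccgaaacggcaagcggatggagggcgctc
Bhlhe41: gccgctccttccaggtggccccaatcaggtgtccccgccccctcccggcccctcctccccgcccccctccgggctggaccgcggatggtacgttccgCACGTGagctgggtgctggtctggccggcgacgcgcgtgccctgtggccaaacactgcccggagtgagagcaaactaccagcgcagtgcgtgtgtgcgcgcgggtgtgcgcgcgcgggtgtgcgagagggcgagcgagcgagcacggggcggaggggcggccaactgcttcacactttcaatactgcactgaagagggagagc
Coq10b: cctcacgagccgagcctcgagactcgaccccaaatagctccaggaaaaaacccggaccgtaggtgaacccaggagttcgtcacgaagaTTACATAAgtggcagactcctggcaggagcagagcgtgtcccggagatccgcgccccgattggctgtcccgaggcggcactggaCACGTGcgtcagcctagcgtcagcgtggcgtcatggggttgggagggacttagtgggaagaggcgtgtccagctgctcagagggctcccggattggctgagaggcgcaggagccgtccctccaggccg

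The Arntl promoter holds the ROR element core at position 30 from the start, and Nfil3 holds it on the opposite strand at -12, negative positions being before the start. Ciart holds 3 E-boxes, which begin at -116, -58 and -44, Per1 holds 1 at -166 and Bhlhe41 holds 1 at -153. Coq10b holds a D-box on the opposite strand at -162 and an E-box at -78. Of the 32851 promoters of this length, 7.15% hold the E-box, 1.06% a D-box and 6.45% the ROR element core. The promoters of Npas2 and Nr1d1 that were searched hold none of these letters, and neither do those of the first start of Arntl and the second start of Per1. This says only that the letters are not in these windows. A match is a description of the sequence and not evidence of binding.

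The label of the tissue was checked against fibre genes first. All 9 fast fibre genes tested, among them Myh4 and Actn3, were higher in TA than in SOL of the same animal in 18 of 18 animals. All 7 slow fibre genes tested, among them Myh7 and Tnni1, were lower in TA in 18 of 18. Array medians of the 18 arrays ran from 6.67 to 6.78 on the log2 scale, pairs of arrays correlated with r between 0.969 and 0.995, and the median SD within a time was 0.12.

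ZT0 replicate A held liver transcripts. Over 31 liver genes its level stood above the mean of the other ZT0 arrays by a median of 4.27 log2 units, from 0.82 to 7.52, and the mean of the list was 9.92 on this array against 5.22 to 6.83 on the others, the 6.83 on 1 ZT4 array. No liver gene was called in the 24 h fit with limma (2 of 31 at an unadjusted p under 0.05, and none with time as a factor). The animals' identification numbers belong to the series BM3, BM2* and BM2, with 12, 4 and 2 of the 18 arrays. BM3 animals gave 3 of 3 arrays at ZT0, ZT4 and ZT20, 2 at ZT8, 1 at ZT16 and 0 at ZT12, so series and time are partly mixed. Results are therefore given also without ZT0 replicate A, and with a term for BM3 animals where that takes the call of a gene named for its 24 h cosine. In BM3 animals alone 38 of the 88 named genes called by the cosine kept their call, and losses there are given for some genes only.

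Control TA had a daily cycle in a small part of its transcriptome, led by clock genes. A cosine of 24 h was called (limma, Benjamini-Hochberg adjusted p under 0.05) for 398 of 20239 genes, 1.97%. Their amplitude, the distance from mean to peak on the log2 scale, had a median of 0.28 and ran from 0.12 to 1.34. The median over all genes tested was 0.065, but the call rests on the same terms as the amplitude, so called genes stand higher by selection. Only 52 of the 398 exceeded 0.5, and 6 exceeded 1, namely Ciart, Per1, Nr1d1, Arntl, Pfkfb3 and Npas2. The time means of 59 genes spanned over 2-fold. Without ZT0 replicate A 377 genes (1.86%) were called, 339 of them among the 398. With a term for BM3 animals 137 genes (0.677%) were called, 132 of them among the 398, and in BM3 animals alone 78 (0.385%), 74 of them among the 398. The median amplitude of the 398 was 0.26 with the term and 0.26 in BM3 animals alone, and the fitted peak of all 398 stayed within 3 h when the term was added. Leaving out single arrays gave 299 to 427 called genes.

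Whether the 6 times differ in any way, not only as a cosine, was tested with time as a factor. This called 206 genes (1.02%), of which 187 were also called by the cosine. It called 188 (0.929%) without ZT0 replicate A and 94 (0.464%) with the BM3 term, 92 of them among the 206. The count was 144 to 244 when single arrays were left out. Since these are whole muscles, fewer cells of a type and less RNA per cell cannot be told apart in any of these values.

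**Figure D1:**
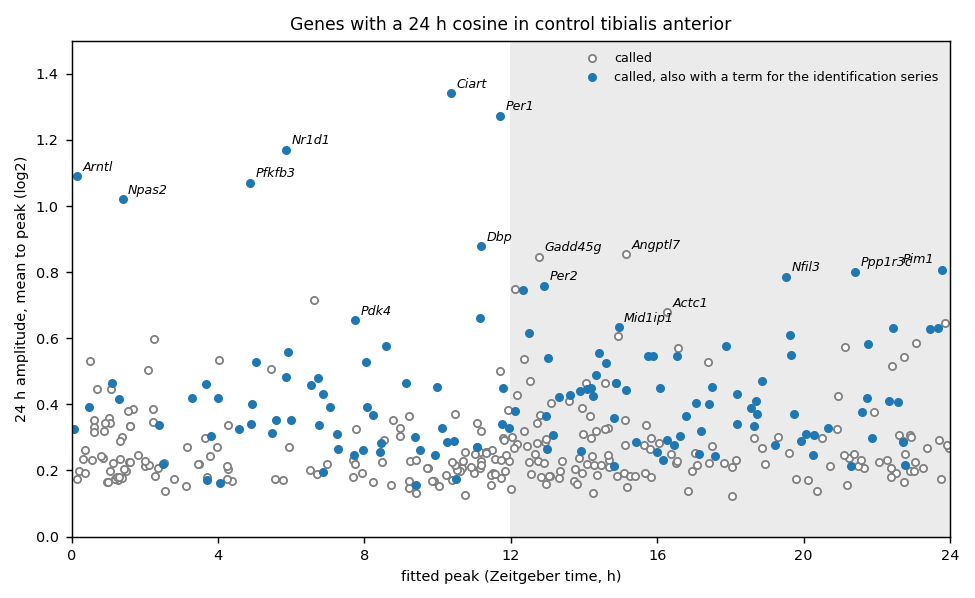
Fitted peak time (x, Zeitgeber time in h) and 24 h amplitude (y, mean to peak, log2) of the genes called by the cosine in control TA, with the dark phase in grey. Each point is 1 gene, and filled points are also called with a term for the identification series. Ciart (1.34), Per1 (1.27) and Nr1d1 (1.17) stand highest, while most genes lie under 0.5.

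The fitted peaks were spread over the whole day, with the most around the change from light to dark. In windows of 4 h centred on each sampling time, 78 called genes peaked around ZT0, 48 around ZT4, 49 around ZT8, 101 around ZT12, 75 around ZT16 and 47 around ZT20. Without ZT0 replicate A the counts were 72, 39, 50, 100, 74 and 42 in the same order. With the BM3 term they were 14, 14, 25, 28, 37 and 19, so the window with the most genes was then ZT16.

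Of the genes in the clock lists, 24 of 44 measured were called, 54.5% beside 1.97% of all genes. The count was 23 without ZT0 replicate A, 19 with the BM3 term and 20 with time as a factor. All 3 activators, 7 of 8 repressors, 2 of 4 REV-ERB and ROR receptors, all 4 of the D-box factors, 1 of 11 clock kinases and ligases and 7 of 14 other output genes made up the count. The members of these lists and of all lists below were chosen with earlier results of these data known. The share of a list beside that of all genes is therefore a description and not a test. The activators peaked at dawn, Nr1d1 in the middle of the light phase, the Per genes near dusk, and Nfil3 late in the dark.

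Arntl is the activator without which the clock stops. Log2 signals of Arntl on the 3 arrays of each time were 9.37, 9.18 and 9.12 at ZT0, 9.10, 8.89 and 8.88 at ZT4, 7.95, 7.75 and 7.19 at ZT8, 7.19, 6.84 and 7.02 at ZT12, 7.95, 7.65 and 7.87 at ZT16, and 8.48, 8.74 and 8.64 at ZT20. All ZT0 and ZT4 arrays stood above all others, the ZT12 arrays were the lowest, and the next lowest was ZT8 replicate C. The amplitude was 1.09 ± 0.072 (SE, n = 18 arrays) with a peak at 0.147 ± 0.25 h, limma adjusted p = 6.95e-08, and the time means spanned 4.62-fold. Npas2, the partner of BMAL1 that can stand in for CLOCK, had time means of 7.82 at ZT0, 7.69 at ZT4, 6.09 at ZT8, 6.01 at ZT12, 6.01 at ZT16 and 6.51 at ZT20. Its ZT0 and ZT4 arrays, from 7.59 to 7.92, stood above all others, which reached 6.65, and the fit gave an amplitude of 1.02 ± 0.10 and a peak at 1.39 ± 0.39 h (adjusted p = 2.68e-05). Clock itself swung less, with time means from 8.68 at ZT12 to 9.32 at ZT4 and an amplitude of 0.33 ± 0.050 and a peak at 1.59 ± 0.57 h (adjusted p = 0.00171). The call of Clock was lost with the BM3 term (adjusted p = 0.294).

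The repressor Per1 changed most among the Per genes. Its log2 signal on replicates A, B and C was 7.27, 7.33 and 7.03 at ZT0, 7.48, 7.57 and 7.49 at ZT4, 9.05, 9.26 and 9.28 at ZT8, 9.47, 9.86 and 9.68 at ZT12, 8.59, 8.85 and 8.65 at ZT16, and 7.94, 7.75 and 7.36 at ZT20. ZT12 was the highest time and ZT8 the next, with no overlap between them or with any other time, and only ZT4 overlapped ZT20. The 24 h fit gave an amplitude of 1.27 ± 0.074 and a peak at 11.7 ± 0.22 h (adjusted p = 1.11e-08), and the time means spanned 5.5-fold. Per2 peaked a little later, with an amplitude of 0.76 ± 0.044 and a peak at 12.9 ± 0.22 h (adjusted p = 1.11e-08), and Per3 gave an amplitude of 0.66 ± 0.052 and a peak at 11.2 ± 0.30 h (adjusted p = 8.91e-07). The arrays gave log2 signals for Per2 of 6.64, 6.96 and 6.89 at ZT0, 6.91, 6.93 and 6.98 at ZT4, 7.80, 8.04 and 7.93 at ZT8, 8.29, 8.31 and 8.21 at ZT12, 8.14, 8.01 and 7.94 at ZT16, and 7.48, 7.42 and 7.48 at ZT20. For Per2 every ZT12 array stood above every other array, and ZT0 and ZT4 overlapped at the bottom. Ciart, a small repressor of CLOCK and BMAL1, had the largest amplitude of the 398 called genes. By replicate, Ciart read 5.89, 5.74 and 5.92 at ZT0, 5.93, 6.61 and 6.59 at ZT4, 8.65, 8.45 and 8.28 at ZT8, 7.87, 8.53 and 7.78 at ZT12, 7.12, 6.64 and 6.82 at ZT16, and 5.97, 6.21 and 5.97 at ZT20 on the log2 scale. Its ZT8 and ZT12 arrays overlapped each other and stood above all others, the time means spanned 6.11-fold, and the fit gave an amplitude of 1.34 ± 0.12 and a peak at 10.4 ± 0.34 h (adjusted p = 5.23e-06). Cry2 gave an amplitude of 0.38 ± 0.037 and a peak at 12.1 ± 0.37 h (adjusted p = 1.81e-05).

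Of the other repressors, Cry1 and Bhlhe41 were near the threshold and Bhlhe40 did not reach it. Cry1 had an amplitude of 0.21 ± 0.043 and a peak at 18.05 ± 0.78 h (adjusted p = 0.0298), a peak later than that of Cry2, and its call was lost without any 1 of 7 arrays (all 3 of ZT4, ZT16 A and C, ZT20 B and C, adjusted p up to 0.0753) and with the BM3 term (adjusted p = 0.0545). Bhlhe41, with an amplitude of 0.30 ± 0.061 and a peak at 8.96 ± 0.77 h (adjusted p = 0.0262), lost its call without any 1 of 5 arrays (ZT8 A and B, ZT12 A and B, ZT20 C, adjusted p up to 0.0706) and with the BM3 term (adjusted p = 0.0896). Bhlhe40 had an amplitude of 0.22 ± 0.068 (adjusted p = 0.28, and 0.0138 with the BM3 term).

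Nr1d1, which encodes REV-ERB alpha, gave the smallest p of all genes. The log2 signal of Nr1d1 in the 18 animals was 10.68, 10.68 and 10.69 at ZT0, 11.83, 11.82 and 11.60 at ZT4, 11.59, 11.52 and 11.16 at ZT8, 10.64, 10.59 and 10.59 at ZT12, 9.59, 9.78 and 9.62 at ZT16, and 9.41, 9.44 and 9.52 at ZT20. No time overlapped another, in the order ZT4, ZT8, ZT0, ZT12, ZT16 and ZT20 from high to low. The cosine had an amplitude of 1.17 ± 0.053 and a peak at 5.86 ± 0.17 h (adjusted p = 4.15e-10), and the time means spanned 4.9-fold. Its paralogue Nr1d2 had a smaller amplitude and a later peak, with an amplitude of 0.29 ± 0.043 and a peak at 10.5 ± 0.57 h (adjusted p = 0.00185), and was not called in BM3 animals alone (adjusted p = 0.0665). The activators that compete with them did not pass the test, with amplitudes of 0.068 ± 0.041 for Rora (adjusted p = 0.774) and 0.022 ± 0.056 for Rorb (adjusted p = 0.981).

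The D-box activator Dbp peaked near dusk. For Dbp the 3 animals of each time gave log2 signals of 8.12, 8.61 and 8.17 at ZT0, 9.15, 9.09 and 9.04 at ZT4, 10.31, 9.98 and 10.02 at ZT8, 10.08, 10.04 and 10.13 at ZT12, 9.42, 9.70 and 9.56 at ZT16, and 9.04, 8.995 and 8.96 at ZT20. ZT8 and ZT12 overlapped and stood above all other times, and ZT0 was the lowest. In the 24 h fit it had an amplitude of 0.88 ± 0.066 and a peak at 11.2 ± 0.29 h (adjusted p = 4.74e-07). Hlf had an amplitude of 0.32 ± 0.054 and a peak at 12.4 ± 0.65 h (adjusted p = 0.00608), with the call lost with the BM3 term (adjusted p = 0.0506). Tef had an amplitude of 0.23 ± 0.052 and a peak at 11.6 ± 0.85 h (adjusted p = 0.0496), so close to the threshold that the call was lost without ZT0 replicate A (adjusted p = 0.0852), with the BM3 term (adjusted p = 0.251) and without any 1 of 15 of the 18 arrays (adjusted p up to 0.14).

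Nfil3, the repressor at the same boxes, was high when Dbp was low or falling. Log2 signals of Nfil3 on the 3 arrays of each time were 8.39, 8.31 and 8.53 at ZT0, 7.51, 7.40 and 7.51 at ZT4, 6.80, 7.03 and 7.20 at ZT8, 7.65, 7.61 and 7.64 at ZT12, 9.03, 8.05 and 8.71 at ZT16, and 8.21, 8.58 and 8.41 at ZT20. The ZT16, ZT20 and ZT0 arrays overlapped and stood above those of ZT4, ZT8 and ZT12. The fit gave an amplitude of 0.79 ± 0.087 and a peak at 19.5 ± 0.42 h (adjusted p = 6.53e-05).

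**Figure D2:**
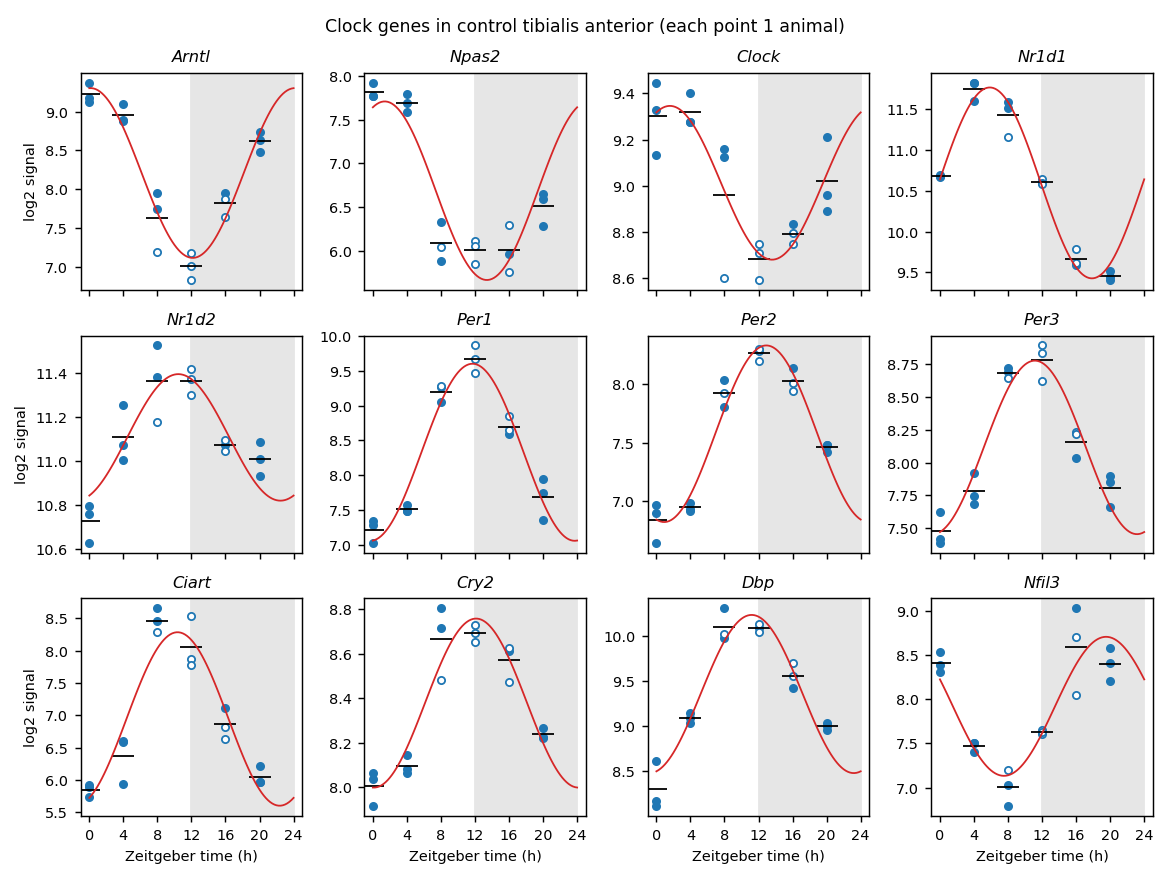
Log2 signal (y) by Zeitgeber time (x, h) of 12 clock genes in control TA. Points are single animals, filled for BM3 and open for the other identification series, black bars are means of 3 arrays, the red line is the 24 h cosine and grey is the dark phase. Arntl, Npas2 and Clock are high at ZT0 and ZT4, Nr1d1 at ZT4 and ZT8, and the Per genes, Ciart, Cry2 and Dbp are highest at ZT8 or ZT12.

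Among 11 kinases, ligases and other regulators of clock proteins only the deubiquitinase gene Usp2 was called, with an amplitude of 0.54 ± 0.039 and a peak at 13.01 ± 0.28 h (adjusted p = 2.76e-07). Its log2 signal on replicates A, B and C was 10.30, 10.45 and 10.22 at ZT0, 10.38, 10.31 and 10.22 at ZT4, 11.01, 11.11 and 11.12 at ZT8, 11.26, 11.25 and 11.28 at ZT12, 11.15, 11.26 and 11.11 at ZT16, and 10.72, 10.76 and 10.61 at ZT20. Its ZT8, ZT12 and ZT16 arrays stood above all others. The kinase genes Csnk1d and Csnk1e, which mark PER proteins, had amplitudes of 0.031 ± 0.028 (adjusted p = 0.884) and 0.10 ± 0.030 (adjusted p = 0.203). At an unadjusted p under 0.05, 3 of the 11 passed.

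Among the output genes, Pfkfb3 had the largest swing. It encodes the enzyme that makes fructose 2,6-bisphosphate, which drives glycolysis. The arrays gave log2 signals for Pfkfb3 of 10.57, 10.004 and 9.50 at ZT0, 11.55, 11.39 and 11.34 at ZT4, 11.47, 11.06 and 10.98 at ZT8, 9.30, 10.60 and 9.04 at ZT12, 9.29, 8.57 and 9.43 at ZT16, and 9.15, 10.40 and 10.30 at ZT20. The ZT4 and ZT8 arrays stood above all others, while 1 animal at ZT12, replicate B, lay over 1 log2 unit above the other 2 of its time. The 24 h fit gave an amplitude of 1.07 ± 0.18 and a peak at 4.87 ± 0.63 h (adjusted p = 0.00514), and in BM3 animals alone the adjusted p was 0.0895. Coq10b, which encodes a coenzyme Q binding protein, had an amplitude of 0.45 ± 0.058 and a peak at 9.98 ± 0.49 h (adjusted p = 0.000368), and Tspan4, a tetraspanin gene, an amplitude of 0.45 ± 0.045 and a peak at 11.8 ± 0.38 h (adjusted p = 2e-05). Ypel2 had an amplitude of 0.63 ± 0.072 and a peak at 22.5 ± 0.44 h (adjusted p = 9.87e-05) and Lonrf3 an amplitude of 0.47 ± 0.068 and a peak at 18.9 ± 0.55 h (adjusted p = 0.00134).

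Wee1, whose kinase holds cells before mitosis, had an amplitude of 0.39 ± 0.066 and a peak at 13.95 ± 0.65 h (adjusted p = 0.00633), lost with the BM3 term (adjusted p = 0.06). The magnesium carrier gene Slc41a3 had an amplitude of 0.17 ± 0.034 and a peak at 3.71 ± 0.77 h (adjusted p = 0.026), lost without ZT4 A or C or ZT16 A or C (adjusted p up to 0.0745). Nampt, which makes a precursor of NAD, had an amplitude of 0.077 ± 0.033 (adjusted p = 0.582), and Leo1, Dtx4, Gys2, Hif3a, Rgs16 and Mthfd1l were not called either (adjusted p from 0.073 to 0.939).

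Of the 22 called clock genes in the promoter table, 10 had the E-box in a promoter of this length (45.5%, beside 9.47% of all 15651 genes tested that the table holds), 2 a D-box (9.09%, beside 1.12%) and 2 the ROR element core (9.09%, beside 6.68%). By peak window, the share of called genes with the E-box was 18.5% around ZT0, 5.26% around ZT4, 21.2% around ZT8, 10.3% around ZT12, 12.1% around ZT16 and 18.4% around ZT20. These are shares of 65, 38, 33, 78, 58 and 38 genes, given as a description, and clock genes are among them. The 10 clock list genes with the E-box include the output genes Coq10b, Lonrf3, Tspan4, Pfkfb3 and Slc41a3. Since the list members were chosen with earlier results of these data known, the share of 45.5% is a description as well.

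Several genes outside the clock lists had p-values as small as those of clock genes. The smallest p outside the lists belonged to Mid1ip1, which encodes a partner of the enzyme that starts fatty acid synthesis. By replicate, Mid1ip1 read 8.25, 8.20 and 8.03 at ZT0, 7.85, 8.03 and 7.92 at ZT4, 8.48, 8.36 and 8.53 at ZT8, 8.95, 8.89 and 9.18 at ZT12, 9.16, 9.30 and 9.19 at ZT16, and 8.68, 8.71 and 8.73 at ZT20 on the log2 scale. The ZT12 and ZT16 arrays stood above all others and those of ZT4 and ZT0 were the lowest. The cosine had an amplitude of 0.63 ± 0.035 and a peak at 14.9 ± 0.21 h (adjusted p = 8.72e-09). The next was Pim1, a kinase gene with a peak at the end of the night. The log2 signal of Pim1 in the 18 animals was 9.43, 9.33 and 9.18 at ZT0, 8.90, 8.66 and 8.55 at ZT4, 7.98, 7.90 and 7.68 at ZT8, 7.66, 7.64 and 7.70 at ZT12, 7.96, 8.10 and 7.98 at ZT16, and 8.68, 8.89 and 8.54 at ZT20. All ZT0 arrays stood above all others, and the ZT8, ZT12 and ZT16 arrays were the lowest. In the 24 h fit it had an amplitude of 0.81 ± 0.051 and a peak at 23.8 ± 0.24 h (adjusted p = 3.8e-08).

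Pnpla3, which encodes a lipase-like protein of lipid droplets, peaked late in the night. For Pnpla3 the 3 animals of each time gave log2 signals of 8.05, 8.28 and 8.03 at ZT0, 7.47, 7.47 and 7.42 at ZT4, 6.90, 7.005 and 6.91 at ZT8, 7.18, 6.94 and 7.26 at ZT12, 7.57, 7.49 and 7.58 at ZT16, and 8.04, 7.97 and 7.89 at ZT20. ZT0 and ZT20 overlapped at the top and ZT8 and ZT12 at the bottom. The fit gave an amplitude of 0.58 ± 0.041 and a peak at 21.8 ± 0.27 h (adjusted p = 1.74e-07). The other genes with the smallest p were the phosphatase gene Dusp7 (amplitude 0.43, peak 14.2 h), Cep85l (amplitude 0.75, peak 12.3 h), the flavin monooxygenase gene Fmo2 (amplitude 0.55, peak 14.4 h), the zinc finger gene Zfp462 (amplitude 0.39, peak 0.478 h), Wsb1 (amplitude 0.63, peak 23.7 h) and Osgin1 (amplitude 0.37, peak 16.8 h), with limma adjusted p from 5.45e-06 to 1.39e-05 except for Dusp7 at 2.33e-06. Each of these was called in every alternative run at the threshold of 0.05.

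Myod1, the master regulator of muscle identity, was among them. Log2 signals of Myod1 on the 3 arrays of each time were 9.02, 9.35 and 9.23 at ZT0, 8.69, 8.73 and 8.57 at ZT4, 8.55, 8.48 and 8.44 at ZT8, 8.66, 8.43 and 8.71 at ZT12, 9.27, 9.44 and 9.60 at ZT16, and 9.45, 9.33 and 9.54 at ZT20. The ZT0, ZT16 and ZT20 arrays stood above those of ZT4, ZT8 and ZT12 with no overlap. The 24 h fit gave an amplitude of 0.55 ± 0.050 and a peak at 19.7 ± 0.35 h (adjusted p = 7.49e-06), and Myod1 rose from ZT12 to ZT16 by 0.84 ± 0.11 (adjusted p = 0.00417). Of 19 myogenic and growth factors only Tead4 was called beside it (amplitude 0.32, peak 0.621 h, adjusted p = 0.0136, and 0.682 with the BM3 term), and 7 of 19 had an unadjusted p under 0.05.

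The called genes of fuel choice peaked in the light. Of 21 fasting and PPAR target genes 4 were called, 19.0% beside 1.97% of all genes. Pdk4 encodes the kinase that shuts pyruvate dehydrogenase and so spares glucose. Its log2 signal on replicates A, B and C was 11.71, 11.19 and 11.61 at ZT0, 12.86, 13.12 and 12.80 at ZT4, 12.44, 12.28 and 12.72 at ZT8, 11.98, 12.59 and 12.20 at ZT12, 11.93, 11.78 and 12.36 at ZT16, and 11.39, 11.39 and 11.28 at ZT20. All ZT4 arrays stood above all others, and the ZT0 and ZT20 arrays were the lowest. It rose from ZT0 to ZT4 by 1.42 ± 0.18 (SE, limma adjusted p = 0.00338), the largest rise called over that interval, and the 24 h fit gave an amplitude of 0.65 ± 0.11 and a peak at 7.74 ± 0.67 h (adjusted p = 0.00788), so that the fitted peak lay later than the highest time mean.

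Ucp3, the mitochondrial carrier gene that goes up with fatty acid supply, moved with it. The arrays gave log2 signals for Ucp3 of 9.19, 9.27 and 9.23 at ZT0, 10.39, 10.71 and 10.22 at ZT4, 10.08, 10.05 and 10.36 at ZT8, 9.79, 10.05 and 9.87 at ZT12, 9.86, 9.64 and 9.84 at ZT16, and 9.45, 9.22 and 9.05 at ZT20. The ZT0 and ZT20 arrays stood below all others. It rose by 1.21 ± 0.13 from ZT0 to ZT4 (adjusted p = 0.000779), and the fit gave an amplitude of 0.53 ± 0.092 and a peak at 8.04 ± 0.66 h (adjusted p = 0.00749). In BM3 animals alone the adjusted p was 0.0683 for Pdk4 and 0.124 for Ucp3. Cpt1a, whose product lets fatty acids into mitochondria, gave an amplitude of 0.43 ± 0.054 and a peak at 6.88 ± 0.48 h (adjusted p = 0.00031), with time means from 7.19 at ZT20 to 8.11 at ZT4. Ppargc1b, a coactivator gene of oxidative metabolism, gave an amplitude of 0.26 ± 0.042 and a peak at 7.97 ± 0.61 h (adjusted p = 0.00365). It was not called in BM3 animals alone (limma adjusted p = 0.129). In the pyruvate dehydrogenase list the phosphatase gene Pdp1, which reopens the complex, was the only 1 of 11 called (amplitude 0.20, peak 10.5 h, adjusted p = 0.0268), and its call was lost without any 1 of 5 arrays (ZT0 C, ZT8 A and all 3 of ZT12, adjusted p up to 0.0736) and with the BM3 term (adjusted p = 0.27).

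The called genes of glucose storage and insulin signalling peaked in the dark. Ppp1r3c encodes a subunit that brings a phosphatase to glycogen and favours its synthesis. By replicate, Ppp1r3c read 11.94, 11.71 and 11.63 at ZT0, 11.23, 11.17 and 11.34 at ZT4, 10.38, 10.53 and 9.76 at ZT8, 10.22, 10.36 and 10.61 at ZT12, 11.72, 11.59 and 11.53 at ZT16, and 11.45, 11.72 and 11.64 at ZT20 on the log2 scale. The ZT8 and ZT12 arrays stood below all others. It fell by 1.02 ± 0.16 from ZT4 to ZT8 (limma adjusted p = 0.012) and rose by 1.22 ± 0.16 from ZT12 to ZT16 (adjusted p = 0.00417), and the fit gave an amplitude of 0.80 ± 0.093 and a peak at 21.4 ± 0.45 h (adjusted p = 0.000109). It was the only 1 of 21 genes of glucose uptake and glycogen called, with 4 of 21 at an unadjusted p under 0.05.

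Irs1 encodes the main substrate of the insulin receptor in muscle. The log2 signal of Irs1 in the 18 animals was 9.75, 9.88 and 9.70 at ZT0, 9.54, 9.52 and 9.68 at ZT4, 9.23, 9.37 and 9.19 at ZT8, 8.71, 8.67 and 8.87 at ZT12, 10.27, 9.46 and 10.34 at ZT16, and 9.98, 10.35 and 10.17 at ZT20. The ZT12 arrays stood below all others, and at ZT16 replicate B lay well below the other 2. Irs1 rose by 1.28 ± 0.17 from ZT12 to ZT16 (adjusted p = 0.00417), the 24 h fit gave an amplitude of 0.57 ± 0.10 and a peak at 21.1 ± 0.69 h (adjusted p = 0.011), and with the BM3 term the adjusted p of the cosine was 0.0618. Pik3r1, which encodes a regulatory subunit of the kinase downstream of it, gave an amplitude of 0.33 ± 0.043 and a peak at 18.6 ± 0.49 h (adjusted p = 0.000389) and was the other 1 of 20 insulin and IGF signalling genes called. In BM3 animals alone Pik3r1 was not called (limma adjusted p = 0.0611).

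**Figure D3:**
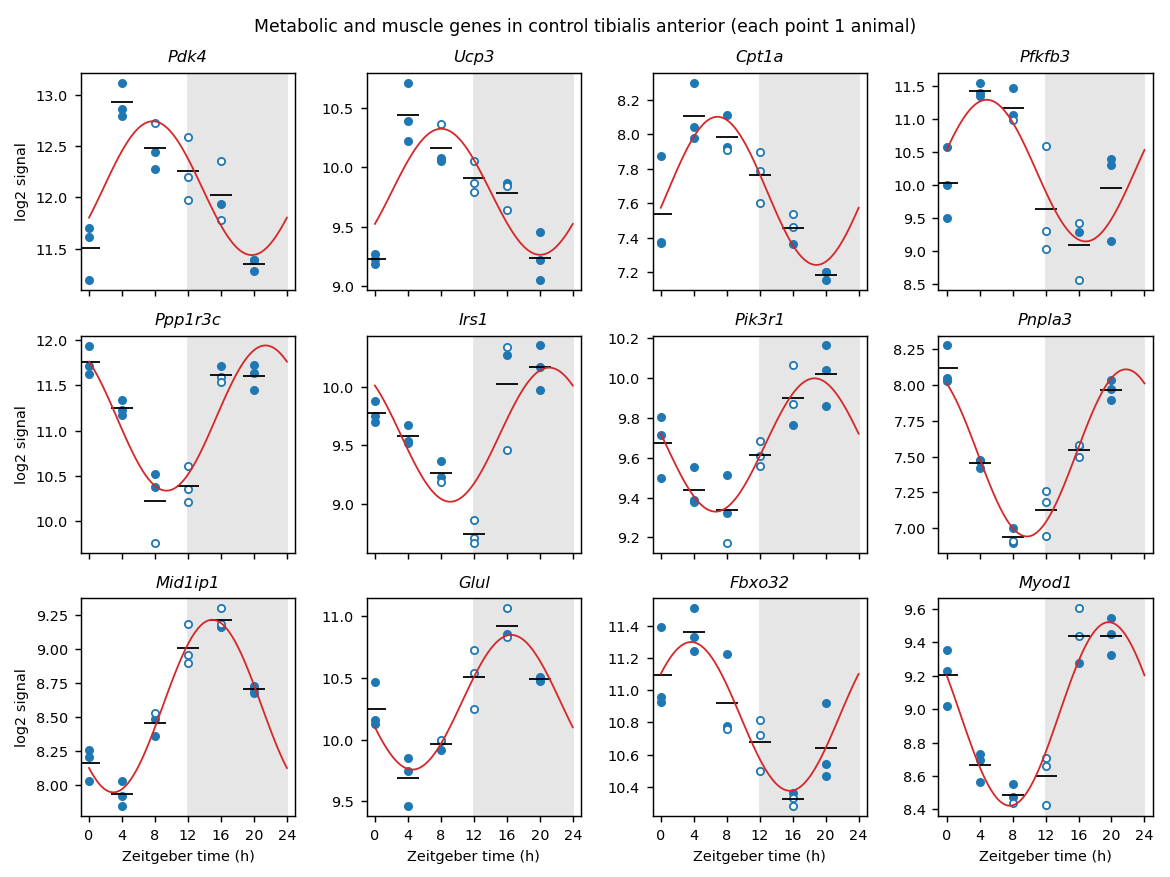
Log2 signal (y) by Zeitgeber time (x, h) of 12 metabolic and muscle genes in control TA, with points, bars, line and shading as in the panels of clock genes. Pdk4, Ucp3, Cpt1a and Pfkfb3 are highest at ZT4, Ppp1r3c and Pnpla3 at ZT0, Irs1, Pik3r1 and Myod1 at ZT16 or ZT20, and Mid1ip1 and Glul at ZT16.

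Of 19 genes of fatty acid and triglyceride synthesis 2 were called, 10.5% beside 1.97% of all genes, and none with time as a factor or with the BM3 term. Dgat2, which makes triglyceride, had an amplitude of 0.35 ± 0.069 and a peak at 15.1 ± 0.75 h (adjusted p = 0.023), lost without ZT4 A, ZT16 A or ZT16 C (adjusted p up to 0.07) and with the BM3 term (adjusted p = 0.128). Gpam, at the first step of that route, had an amplitude of 0.15 ± 0.031 and a peak at 10.05 ± 0.78 h (adjusted p = 0.0291), lost without any 1 of 7 arrays (adjusted p up to 0.0729) and with the BM3 term (adjusted p = 0.22). Of 14 cholesterol genes 2 were called (14.3% beside 1.97%), both with a peak near dawn. Sqle, a synthesis enzyme, had an amplitude of 0.35 ± 0.065 and a peak at 0.615 ± 0.71 h (adjusted p = 0.0134), lost with the BM3 term (adjusted p = 0.122). Insig1, which retains the sterol sensor in the endoplasmic reticulum, had an amplitude of 0.34 ± 0.073 and a peak at 1.6 ± 0.83 h (adjusted p = 0.0445), lost without any 1 of 13 arrays (adjusted p up to 0.112) and with the BM3 term (adjusted p = 0.342).

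Of 17 glucocorticoid-responsive genes measured, 8 were called, 47.1% beside 1.97% of all genes, with peaks from 11.1 to 18.9 h, so from dusk into the dark. The count was 9 without ZT0 replicate A and 5 with the BM3 term. Glul encodes glutamine synthetase. For Glul the 3 animals of each time gave log2 signals of 10.47, 10.12 and 10.16 at ZT0, 9.74, 9.46 and 9.85 at ZT4, 9.99, 9.91 and 9.999 at ZT8, 10.25, 10.72 and 10.54 at ZT12, 10.86, 10.83 and 11.07 at ZT16, and 10.48, 10.49 and 10.51 at ZT20. All ZT16 arrays stood above all others and the ZT4 and ZT8 arrays were the lowest. The cosine had an amplitude of 0.55 ± 0.056 and a peak at 16.5 ± 0.39 h (adjusted p = 2.68e-05). Ddit4, whose product restrains the growth kinase mTORC1, had an amplitude of 0.62 ± 0.064 and a peak at 12.5 ± 0.39 h (adjusted p = 2.68e-05), and Nfkbia, which encodes an inhibitor of NF-kappaB, had an amplitude of 0.34 ± 0.038 and a peak at 11.8 ± 0.43 h (adjusted p = 7.63e-05). In BM3 animals alone neither was called (adjusted p = 0.118 and 0.13).

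Of 21 genes of FoxO signalling, atrophy and autophagy 2 were called (9.52% beside 1.97%), with different peaks. Fbxo32, the atrogin-1 ubiquitin ligase gene, peaked in the light. Log2 signals of Fbxo32 on the 3 arrays of each time were 11.39, 10.96 and 10.93 at ZT0, 11.51, 11.24 and 11.33 at ZT4, 10.78, 11.23 and 10.76 at ZT8, 10.72, 10.82 and 10.50 at ZT12, 10.36, 10.28 and 10.33 at ZT16, and 10.54, 10.92 and 10.47 at ZT20. The ZT16 arrays stood below all others. In the 24 h fit it had an amplitude of 0.46 ± 0.062 and a peak at 3.68 ± 0.51 h (adjusted p = 0.000554). Fbxo32 was not called in BM3 animals alone (limma adjusted p = 0.0616). Foxo1, which encodes a factor known to activate Fbxo32, peaked in the dark with an amplitude of 0.25 ± 0.047 and a peak at 16.4 ± 0.73 h (adjusted p = 0.0174), and its call was lost without ZT4 C, ZT16 A or ZT16 C (adjusted p up to 0.0556) and with the BM3 term (adjusted p = 0.0762).

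The genes with the largest amplitudes are listed here by peak window. Around ZT0 the 5 largest amplitudes outside the clock lists were those of Pim1, Wsb1, the carrier gene Slc16a9 (amplitude 0.63, peak 23.5 h), the mitochondrial nucleotide carrier gene Slc25a36 (amplitude 0.59, peak 23.1 h) and the G-protein regulator gene Rgs2 (amplitude 0.54, peak 22.7 h). Slc25a36 and Rgs2 were not called with the BM3 term (adjusted p = 0.311 and 0.177). Around ZT4 they were Trp53i11 (amplitude 0.56, peak 5.92 h), Vmn2r51 (amplitude 0.51, peak 5.45 h), the deubiquitinase gene Otub2 (amplitude 0.50, peak 2.1 h), Klhl38 (amplitude 0.48, peak 5.87 h) and Fbxo32. Otub2 was not called with the BM3 term (adjusted p = 0.0685). The vomeronasal receptor gene Vmn2r51 had a mean level of 3.75, near the lower end of the arrays' range, and lost its call without any 1 of 12 arrays (adjusted p up to 0.0974), with the BM3 term (adjusted p = 0.11) and in BM3 animals alone (adjusted p = 0.469).

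Around ZT8 Pdk4 and Ucp3 were joined by Cecr2 (amplitude 0.48, peak 6.72 h) and by 2 immunoglobulin light chain genes. These were Igkv4-57-1 (amplitude 0.71, peak 6.62 h), with a mean of 4.95 and no call without any 1 of 12 arrays (adjusted p up to 0.0941) or with the BM3 term (adjusted p = 0.0519), and another of the Igkv14 group (amplitude 0.58, peak 8.58 h), with a mean of 3.30. No member of the lymphocyte and granulocyte list was called with limma (1 of 9 at an unadjusted p under 0.05), and its mean ran from 5.68 to 6.03 over the 18 arrays. The part of such cells in the 2 results was not tested.

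Around ZT12 Gadd45g, a stress sensor gene, had the largest amplitude outside the clock lists. Its log2 signal on replicates A, B and C was 7.80, 7.59 and 7.87 at ZT0, 8.14, 7.87 and 8.16 at ZT4, 7.85, 8.06 and 8.97 at ZT8, 9.47, 9.58 and 9.69 at ZT12, 9.28, 8.82 and 8.93 at ZT16, and 7.95, 7.91 and 7.94 at ZT20. The ZT12 arrays stood above all others, and ZT8 replicate C, the only array of its time outside BM3, reached the ZT16 arrays. The fit gave an amplitude of 0.85 ± 0.11 and a peak at 12.8 ± 0.50 h (adjusted p = 0.000494), and the call was lost with the BM3 term (adjusted p = 0.234). Arrdc2, an arrestin-like gene, had an amplitude of 0.75 ± 0.093 and a peak at 12.1 ± 0.48 h (adjusted p = 0.000245), also lost with the term (adjusted p = 0.151). For both genes the highest time, ZT12, held no BM3 array, so time and series cannot be told apart there. Cep85l kept its call with the term (adjusted p = 0.00232). The arrays gave log2 signals for Cep85l of 8.94, 8.86 and 8.45 at ZT0, 9.04, 8.84 and 8.73 at ZT4, 9.73, 9.68 and 9.49 at ZT8, 10.34, 10.48 and 10.21 at ZT12, 9.71, 9.57 and 9.58 at ZT16, and 9.24, 9.22 and 8.86 at ZT20. Its ZT12 arrays stood above all others. Ddit4 and Ctla2b (amplitude 0.54, peak 12.4 h) completed the window, and Ctla2b lost its call without any 1 of 10 arrays (adjusted p up to 0.0843), with the BM3 term (adjusted p = 0.14) and in BM3 animals alone (adjusted p = 0.307).

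Around ZT16 the largest amplitudes were those of Angptl7, a secreted angiopoietin-like protein gene, with an amplitude of 0.85 ± 0.14 and a peak at 15.2 ± 0.63 h (adjusted p = 0.00493), and Actc1, the cardiac actin gene, with an amplitude of 0.68 ± 0.13 and a peak at 16.3 ± 0.73 h (adjusted p = 0.0173). By replicate, Actc1 read 10.84, 11.16 and 10.998 at ZT0, 10.58, 10.43 and 10.90 at ZT4, 11.15, 10.23 and 11.10 at ZT8, 10.91, 11.06 and 12.08 at ZT12, 12.16, 12.36 and 12.19 at ZT16, and 11.79, 11.51 and 10.74 at ZT20 on the log2 scale. For Actc1 the ZT16 arrays stood above all others, and ZT12 replicate C lay close below them. Its call was lost without any 1 of the 3 ZT16 arrays (adjusted p up to 0.055) and with the BM3 term (adjusted p = 0.112), which also took that of Angptl7 (adjusted p = 0.0545). Mid1ip1, the mitochondrial ATP carrier gene Slc25a25 (amplitude 0.61, peak 14.9 h, adjusted p = 0.22 with the BM3 term) and the methyltransferase gene Mettl21e (amplitude 0.58, peak 17.9 h) were the others.

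Around ZT20 Ppp1r3c, Pnpla3, Irs1 and Myod1 were joined by Cntfr, which encodes a receptor for ciliary neurotrophic factor (amplitude 0.61, peak 19.6 h, adjusted p = 0.000253).

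**Figure D4:**
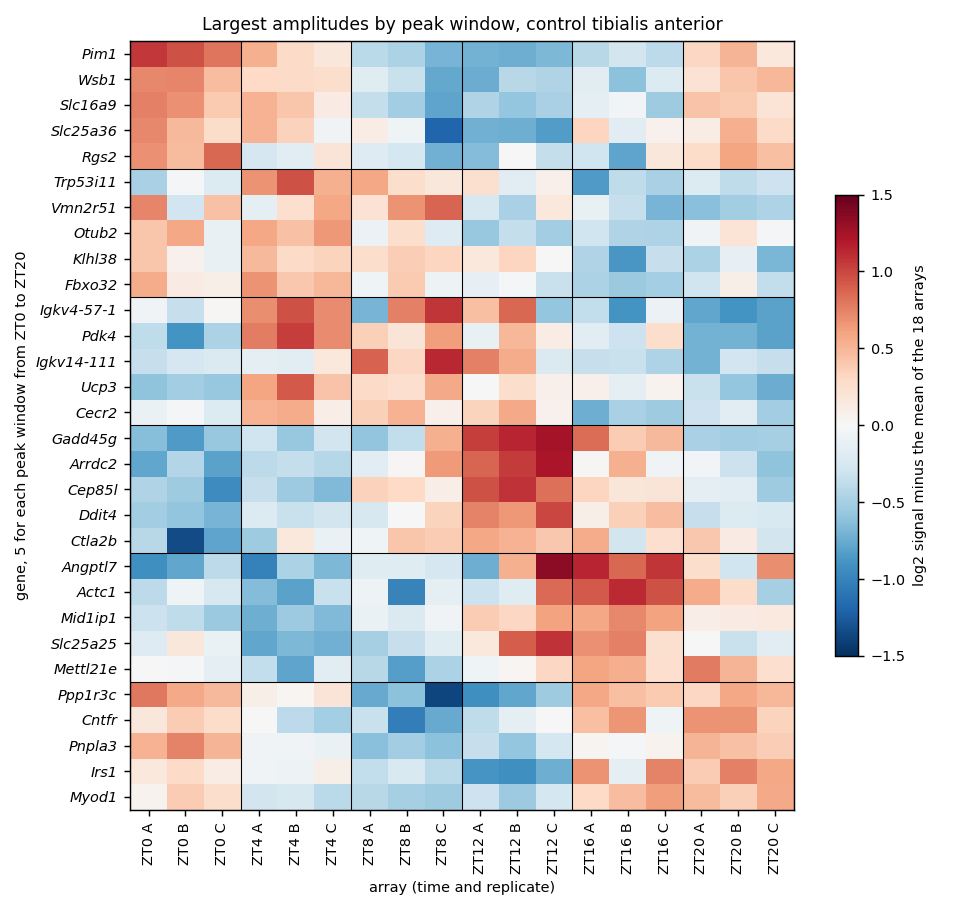
Log2 signal minus the mean of the 18 arrays (colour) for the 5 genes with the largest amplitude in each peak window (rows, from ZT0 at the top to ZT20) on each control TA array (columns, by time and replicate). Rows were picked and ordered by the peaks fitted on these same arrays, so the shift of the red blocks across the columns follows from that choice. Angptl7, Actc1 and Slc25a25 are also high on ZT12 replicate C.

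Successive changes were called mostly over 2 intervals, ZT4 to ZT8 and ZT12 to ZT16. From ZT12 to ZT16 limma called 23 genes higher (0.114% of 20239) and 15 lower (0.0741%). From ZT4 to ZT8 it called 11 higher (0.0544%) and 8 lower (0.0395%). The other steps had few calls, with 5 higher (0.0247%) and 2 lower (0.00988%) to ZT4, 2 and 6 (0.0296%) to ZT20, 2 and 1 (0.00494%) to ZT0 and 1 and 1 to ZT12. The total of 77 calls fell to between 38 and 50 without any 1 of 12 arrays (all 3 of ZT4, ZT12 and ZT20, ZT8 B, ZT16 A and C) and rose to 128 without ZT16 replicate B. With the BM3 term it was 42, with 18 calls from ZT4 to ZT8 (0.0889%), 16 of them among the 19, and 15 from ZT12 to ZT16 (0.0741%), 14 of them among the 38.

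In the first hours of light Nr1d1 rose by 1.06 ± 0.10 from ZT0 to ZT4 (limma adjusted p = 0.000228) beside Pdk4 and Ucp3. Ccn1, a matricellular protein gene, fell by 0.93 ± 0.12 (adjusted p = 0.00357) and Pnpla3 fell by 0.66 ± 0.090 (adjusted p = 0.00581). From ZT4 to ZT8 Ciart rose by 2.09 ± 0.20 (adjusted p = 6.57e-05), Per1 by 1.69 ± 0.14 (adjusted p = 2.9e-05) and Dbp by 1.01 ± 0.12 (adjusted p = 0.000659). Over the same hours Npas2 fell by 1.60 ± 0.14 (adjusted p = 3.92e-05) and Arntl fell by 1.32 ± 0.16 (adjusted p = 0.000673). From ZT20 to ZT0 Npas2 rose by 1.31 ± 0.14 (adjusted p = 0.000664) and Nr1d1 by 1.23 ± 0.10 (adjusted p = 2.9e-05).

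Beside Irs1, Ppp1r3c and Myod1 other genes rose from ZT12 to ZT16. Nr4a3, an orphan receptor gene that exercise induces, had the largest change. The log2 signal of Nr4a3 in the 18 animals was 7.20, 7.38 and 8.47 at ZT0, 6.23, 8.31 and 8.43 at ZT4, 6.35, 7.98 and 7.03 at ZT8, 6.26, 6.33 and 6.49 at ZT12, 9.50, 8.48 and 9.94 at ZT16, and 6.97, 7.29 and 8.04 at ZT20. The ZT16 arrays spanned 8.48 to 9.94, and ZT0 replicate C, at 8.47, lay just below them. Nr4a3 rose by 2.95 ± 0.55 (limma adjusted p = 0.04, and 0.112 with the BM3 term), while neither the cosine (adjusted p = 0.707) nor time as a factor (adjusted p = 0.125) called it. Otud1, a deubiquitinase gene, rose by 1.24 ± 0.17 (adjusted p = 0.00417, and 0.0175 with the BM3 term). Over the same hours Ciart fell by 1.20 ± 0.20 (adjusted p = 0.0219), Per1 fell by 0.97 ± 0.14 (adjusted p = 0.00539) and Nr1d1 fell by 0.94 ± 0.10 (adjusted p = 0.00126). From ZT8 to ZT12 Nr1d1 fell by 0.82 ± 0.10 (adjusted p = 0.00843, and 0.156 with the BM3 term).

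From ZT16 to ZT20 Pim1 rose by 0.69 ± 0.11 (limma adjusted p = 0.0478) while Per1 fell by 1.01 ± 0.14 (adjusted p = 0.0326), Nr4a1 fell by 1.01 ± 0.15 (adjusted p = 0.0394) and Per2 fell by 0.57 ± 0.090 (adjusted p = 0.0478). With the BM3 term the adjusted p of these 4 changes ran from 0.131 to 0.344. Of 20 immediate early genes the cosine called Ccn1 (amplitude 0.45, peak 17.5 h, adjusted p = 0.00596), Nr4a1 (amplitude 0.43, peak 12.2 h, adjusted p = 0.0284) and Jun (amplitude 0.22, peak 17.8 h, adjusted p = 0.0441). Ccn1 was not called in BM3 animals alone (limma adjusted p = 0.0665). Nr4a1 lost its call without ZT0 C, ZT4 B or ZT4 C (adjusted p up to 0.0533) and with the BM3 term (adjusted p = 0.236). Jun lost it without any 1 of 13 arrays, ZT0 replicate A among them (adjusted p up to 0.11), and with the BM3 term (adjusted p = 0.104).

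Some genes were called with time as a factor and not by the cosine, which does not show that they lack one. Of the 19 genes called only by time as a factor, 9 kept both results without ZT0 replicate A, and 8 of these have a gene name. Their time test with the BM3 term is not given here. Adamts1, a secreted protease gene, showed 1 high time. For Adamts1 the 3 animals of each time gave log2 signals of 8.31, 8.50 and 8.39 at ZT0, 8.34, 8.63 and 8.51 at ZT4, 8.67, 9.20 and 8.66 at ZT8, 8.41, 8.51 and 8.33 at ZT12, 9.47, 9.33 and 9.53 at ZT16, and 8.43, 8.68 and 8.89 at ZT20. The ZT16 arrays stood above all others, the nearest being ZT8 replicate B. Its adjusted p was 0.00265 with time as a factor and 0.441 for the cosine (limma). Abra, an actin-binding protein gene of muscle, had time means of 11.59 at ZT0, 11.22 at ZT4, 11.34 at ZT8, 11.06 at ZT12, 12.09 at ZT16 and 11.58 at ZT20 (adjusted p = 0.00653 with time as a factor and 0.184 for the cosine).

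The endothelial receptor gene Eng was highest at ZT16 as well, with time means from 9.17 at ZT12 to 10.07 at ZT16 (limma adjusted p = 0.0171), and the matrix gene Tinagl1 ran from 8.42 at ZT4 to 9.42 at ZT16 (adjusted p = 0.00817). Hdac9, a histone deacetylase gene, was lowest at ZT16 (7.30, adjusted p = 0.0207), as was Trhde (5.04, adjusted p = 0.02). The mRNA decay factor gene Zfp36 was highest at ZT12 (8.04, adjusted p = 0.0255), and Mettl21c was lowest at ZT8 (9.32, adjusted p = 0.0047). Zfp36 read 7.52, 8.34 and 8.26 on replicates A, B and C of ZT12, and ZT16 replicate C (7.68) lay above replicate A. ZT12 held no BM3 array, so time and series cannot be told apart there. From ZT12 to ZT16 Tinagl1 rose by 0.79 ± 0.14 (limma adjusted p = 0.0342, and 0.1 with the BM3 term). With that term the rises of Adamts1, Abra and Eng had adjusted p = 0.0175, 0.0175 and 0.0457. For the cosine the adjusted p was 0.0581 for Hdac9, 0.0992 for Trhde and 0.113 for Tinagl1, and it was 0.233 for Eng, 0.247 for Zfp36 and 0.303 for Mettl21c.

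In 9 lists, among them those of the contractile and energy machinery, no gene was called, and at the share of 1.97% over all genes lists of this size would hold few or no calls. None of 15 fast fibre genes, 13 genes of glycolysis and lactate, 23 of the citrate cycle and respiratory chain, 24 of the extracellular matrix, 19 of amino acid catabolism, 17 heat shock genes, 18 endoplasmic reticulum chaperones, 15 proliferation genes and 14 interferon-responsive genes was called by the cosine (limma). At an unadjusted p under 0.05 the counts were 0, 1, 0, 2, 3, 4, 5, 2 and 3 in that order, and time as a factor called 1 interferon-responsive gene and none of the others. Median amplitudes were 0.016 for fast fibre genes, 0.048 for glycolysis and 0.029 for the citrate cycle and respiratory chain, beside 0.065 over all genes. Fast fibre genes of the tissue check lay near the top of the range, with means of 13.72 for Myh4 and 14.05 for Atp2a1. The highest value of the 18 arrays was 14.38. Amplitudes were not compared at a matched level, so these medians do not show that such genes are unusually constant.

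Of 14 genes in the slow fibre list only Actc1 was called. Its level was higher in control TA (median 11.08) than in control SOL (median 10.12), the reverse of the slow fibre genes in the tissue check. Its call is therefore not read as that of a slow fibre gene. Of 19 genes of ion channels and excitability only Dok7 was called, which helps build the neuromuscular junction (amplitude 0.28, peak 16.5 h, limma adjusted p = 0.0137). Dok7 was not called in BM3 animals alone (limma adjusted p = 0.164). Of the 2 cold-inducible RNA-binding protein genes Cirbp was called (amplitude 0.16, peak 8.24 h, adjusted p = 0.0366), and it lost its call without any 1 of 13 arrays (adjusted p up to 0.0875) and with the BM3 term (adjusted p = 0.0915).

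Among the marker lists of other cell types the cosine called 2 endothelial receptors. Of 9 endothelial genes Flt1 had an amplitude of 0.22 ± 0.032 and a peak at 14.3 ± 0.56 h (adjusted p = 0.00157) and Kdr an amplitude of 0.34 ± 0.068 and a peak at 1.06 ± 0.76 h (adjusted p = 0.0236). Both are receptors for the growth factor VEGF. Neither was called with the BM3 term (adjusted p = 0.0869 and 0.772), and Kdr lost its call without ZT0 B or any 1 of the ZT12 arrays (adjusted p up to 0.0659). With 4 of 9 at an unadjusted p under 0.05 and 22.2% called beside 1.97% of all genes, the list stood above the other marker lists in these counts. Its mean ran from 8.87 to 9.27 over the 18 arrays, and the part of endothelial cells in other results was not tested. The adipocyte, fibroblast and tendon, macrophage, erythroid, Schwann cell, smooth muscle and satellite cell lists had no gene called by the cosine (limma) or with time as a factor, with 0, 1, 1, 0, 0, 0 and 0 at an unadjusted p under 0.05. Of the smooth muscle list Acta2 rose from ZT12 to ZT16 by 0.66 ± 0.12 (adjusted p = 0.0371, and 0.1 with the BM3 term), as did Eng, which is in no list here, by 0.89 ± 0.14 (adjusted p = 0.0129).

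To see where the daily course of TA differs from that of SOL of the same control animals, the 24 h terms of the differences within animals were tested. Limma called 57 genes (0.282% of 20239), and TA had the larger amplitude in 18 of them. The comparison shares its TA arrays with all results above. Within control SOL alone the cosine called 904 genes (4.47%), and the difference between the counts of the muscles was not tested. Without ZT12 replicate C 31 genes were called and without ZT20 replicate B 32. With the BM3 term 9 were called.

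Pim1 had an amplitude of 0.81 in TA and 0.13 in SOL (limma adjusted p of the difference = 8.69e-05, and 0.00529 with the BM3 term). Its level in SOL ran from 7.25 to 7.90 with a median of 7.47 over 18 arrays, against 7.64 to 9.43 with a median of 8.32 in TA. Pfkfb3 had an amplitude of 1.07 in TA and 0.27 in SOL (adjusted p = 0.00786, and 0.145 with the BM3 term), and its level was 8.57 to 11.55 in TA and 7.14 to 8.47 in SOL. Tmem171, a membrane protein gene, was the reverse, with an amplitude of 0.11 in TA and 1.15 in SOL (adjusted p = 7.88e-06). Fzd9, Vwa3a and Spsb4 had amplitudes under 0.1 in TA (0.069, 0.012 and 0.035) and larger ones in SOL (0.64, 0.43 and 0.47). The limma adjusted p of the difference was 0.000661, 0.000661 and 0.000681, and Fzd9 and Vwa3a were not called with the BM3 term (0.209 and 0.204). All of these had lower levels in TA than in SOL, with medians of 6.26 against 7.52 for Tmem171 and 7.92 against 10.31 for Fzd9. For Vwa3a they were 6.26 against 7.07 and for Spsb4 5.88 against 6.85. In TA Tmem171, Vwa3a and Spsb4 thus lay below the array medians, which began at 6.67. The part of the low level in these differences was not tested.

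Other genes cycled in both muscles with different peaks. Arrdc3 peaked at 17.1 h in TA and 11.9 h in SOL (limma adjusted p of the difference = 3.59e-05), Aox1 at 14.2 and 9.88 h (0.000661) and Rnf122 at 21.6 and 5.76 h (0.000661). Cpeb1 peaked at 1.07 h in TA and 10.4 h in SOL (0.000559, and 0.153 with the BM3 term), and Metrnl at 13.8 and 23.0 h (0.000559, and 0.136 with the BM3 term). The cosine of TA alone had an adjusted p of 0.0175 for Arrdc3, lost without ZT4 A or C (up to 0.0552), of 0.0251 for Aox1, lost without any 1 of 6 arrays (up to 0.0602), and of 0.0366 for Metrnl, lost without any 1 of 12 (up to 0.0882). With the BM3 term the cosine of TA alone was not called for Aox1 (adjusted p = 0.238), Metrnl (0.385) or Cpeb1 (0.235).

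Of the 44 clock list genes, 6 differed between the muscles. Nr1d1 (1.17 in TA and 1.43 in SOL, limma adjusted p = 0.0333), Nr1d2 (0.29 and 0.58, 0.00752), Per3 (0.66 and 0.98, 0.00372) and Slc41a3 (0.17 and 0.55, 0.00295) had the smaller amplitude in TA, while Ypel2 (0.63 and 0.44, 0.0314) and Pfkfb3 had the larger. With the BM3 term none of the 6 was called (adjusted p from 0.134 to 0.516). Nr1d1 also lost its call without any 1 of 9 animals (adjusted p up to 0.0848) and Ypel2 without any 1 of 8 (up to 0.0948). The difference of Arntl did not pass the test (1.09 in TA and 1.34 in SOL, adjusted p = 0.0902).

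Against TA of mKO animals, the 24 h terms of 21 genes differed (limma, 0.104% of 20239), with the larger amplitude in control TA in 21 of 21. This comparison uses the same control arrays as all results above, and the cosine within mKO TA alone called 266 genes (1.31%). The level of Arntl over the 18 arrays ran from 6.84 to 9.37 with a median of 8.22 in control TA and from 7.40 to 8.48 with a median of 8.19 in mKO TA. The labels do not say which part of the gene the probe set reads, so this level is no check of the deletion. The mKO TA arrays held 3 of 3 BM3 animals at ZT0, ZT4 and ZT16, 2 at ZT8 and 0 at ZT12 and ZT20, where control TA held 1 at ZT16 and 3 at ZT20, so that series and genotype are mixed at these 2 times. With the BM3 term the adjusted p of the genes named next stayed under 0.05. In BM3 animals alone, which leave no array of either genotype at ZT12 and none of mKO TA at ZT20, 2 genes were called, Arntl and Nr1d1 (both adjusted p = 0.00471).

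Of the clock lists 7 of 44 genes differed. Ciart had an amplitude of 0.22 in mKO TA against 1.34 in control TA (limma adjusted p = 0.00101), Cry2 0.039 against 0.38 (0.000346), Per1 0.78 against 1.27 (0.00101), Coq10b 0.11 against 0.45 (0.00431) and Ypel2 0.12 against 0.63 (0.00101), beside Arntl and Nr1d1 (0.75 against 1.17, 0.00431). The test takes the cosine and sine terms together, so a difference can lie in amplitude, in peak time or in both. The peak of Per1 was at 14.3 h in mKO TA and 11.7 h in control TA. Arntl had an amplitude of 0.33 in mKO TA against 1.09, with peaks at 21.8 and 0.147 h. Outside the clock lists Pnpla3 had an amplitude of 0.14 in mKO TA against 0.58 (adjusted p = 9.61e-05), Slc16a9 0.11 against 0.63 (0.000828), Mid1ip1 0.17 against 0.63 (0.00645) and Pim1 0.46 against 0.81 (0.00029). The amino acid transporter gene Slc38a4 had 0.12 against 0.45 (0.00247), Rnf122 0.13 against 0.38 (0.00645), the ubiquitin ligase component gene Asb2 0.039 against 0.33 (0.011), Auts2 0.17 against 0.46 (0.0145), Crim1 0.14 against 0.23 (0.0129) and the phosphatase gene Synj2 0.025 against 0.30 (0.0167). Synj2 lost its call without either of ZT8 B and ZT8 C of control TA (adjusted p up to 0.0525). For Pim1 the difference of the 24 h terms had a length of 0.74, more than the amplitudes alone differ. The peak of Crim1 was at 10.7 h in control TA and 3.47 h in mKO TA, where its cosine was not called (limma adjusted p = 0.0847).

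Pfkfb3, Pdk4 and Ucp3 did not differ between the genotypes at the threshold. Pfkfb3 had an amplitude of 1.08 in mKO TA against 1.07 and a peak at 5.01 against 4.87 h, and the difference of its 24 h terms was 0.042 ± 0.24 log2 units (SE, limma adjusted p = 0.999). For Pdk4 the amplitudes were 1.01 and 0.65 (adjusted p of the difference = 0.999) and for Ucp3 0.88 and 0.53 (adjusted p = 0.999). A p above the threshold does not show that the courses are alike.

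**Figure D5:**
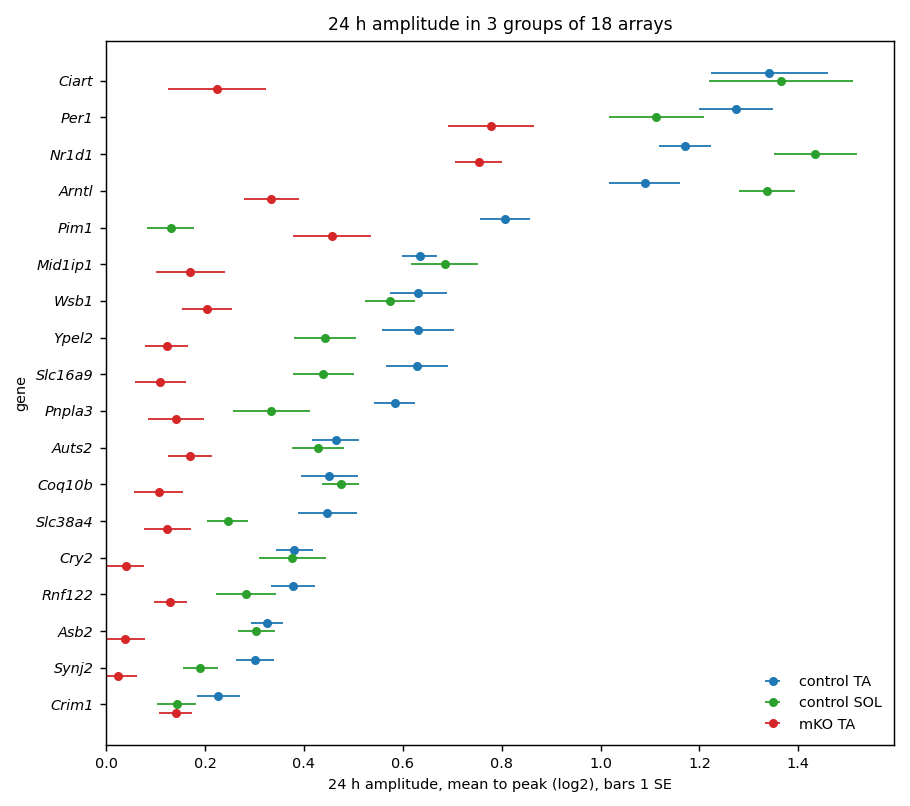
24 h amplitude (x, mean to peak, log2, bars 1 SE) in 3 groups of 18 arrays, control TA, control SOL and mKO TA. The genes are those named in the report whose 24 h terms differed between mKO and control TA, Wsb1 among them. Every gene has its larger amplitude in control TA than in mKO TA, from 1.34 against 0.22 for Ciart to 0.23 against 0.14 for Crim1.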

How the data were processed

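RNA of whole muscles was measured on 72 arrays, of which 18 are control TA. The deposited table holds log2 values that were normalized with RMA, per the submitters' processing notes, with no version stated there. RMA corrects background, equalizes the distributions of the arrays and sums probes, so an overall shift of an array is removed. Precision is limited by how many arrays there are. Of 21225 probe sets 20239 carried a symbol and were tested, 1 probe set per symbol, that with the highest mean over the 72 arrays. The other 986 have no name here.

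Groups, times and animals come from the labels. A cosine and a sine of 24 h were fitted (lmFit and eBayes of limma 3.58.1, under R 4.3.3) and tested with the moderated F test. Time as a factor, the 6 successive changes, the differences TA minus SOL within animals and the interaction of genotype with the 24 h terms were fitted in the same way. P-values were adjusted by Benjamini-Hochberg over all 20239 genes, within each successive change, and called under 0.05. Amplitude is mean to peak on the log2 scale. Fitting was tested on simulated data.

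The labels give the same animal for TA and SOL, which is where that pairing comes from. Deviations from the time means of the 2 muscles had a median correlation of 0.055 (lowest -0.20, highest 0.35), and 6 of 18 animals exceeded 0.1.

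Genes were named by rule: all clock list members, the 10 smallest p outside them, the 5 largest amplitudes in each peak window, the 10 widest ranges among genes called only with time as a factor, the 3 largest successive changes in each direction, and up to 3 called members of each other list with the smallest p. For both comparisons between groups it was the clock lists and the 10 smallest p outside them. Windows, factor-only genes and steps required the call also without ZT0 replicate A, model names were counted only, and liver list members are named only as liver transcripts. Acta2 and the tissue check genes stand outside the rule, and so do changes of Pdk4 and Ucp3 between genotypes. The members and the 38 lists were chosen with earlier results of these data known. Alternatives left out single arrays, added a replicate block, array weights, a trend with robust hyperparameters, a filter on level, a second normalization, centring, or the identification series, or used BM3 animals alone, the spread of all 72 arrays, 12 h terms or a threshold of 0.01.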

Additional observations from a re-analysis of the deposited data

Results flagged for a closer look

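The daily course of control TA differed from that of another group for the following genes, by the test of the 24 h terms themselves (limma, adjusted p in the report). Each value is the length of the difference of the cosine and sine terms on the log2 scale. Between TA and SOL of the same animals it was 1.04 for Tmem171, 0.98 for Pfkfb3, 0.68 for Pim1, 0.68 for Cpeb1, 0.68 for Fzd9, 0.61 for Arrdc3 and 0.58 for Rnf122. It was 0.47 for Spsb4, 0.45 for Aox1, 0.45 for Nr1d1, 0.43 for Metrnl, 0.42 for Vwa3a, 0.40 for Ypel2, 0.38 for Slc41a3, 0.34 for Per3 and 0.32 for Nr1d2. With a term for BM3 animals, Tmem171, Pim1, Arrdc3, Rnf122, Spsb4 and Aox1 kept an adjusted p under 0.05 and the other 10 did not.

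Between mKO and control TA it was 1.12 for Ciart, 0.84 for Arntl, 0.82 for Per1, 0.74 for Pim1, 0.59 for Ypel2, 0.58 for Slc16a9, 0.57 for Pnpla3 and 0.51 for Slc38a4. It was 0.49 for Mid1ip1, 0.48 for Coq10b, 0.45 for Nr1d1, 0.38 for Cry2, 0.37 for Auts2, 0.32 for Rnf122, 0.30 for Crim1, 0.29 for Synj2 and 0.29 for Asb2. These 17 kept an adjusted p under 0.05 with the BM3 term.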

How the results depend on the processing

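With a term for BM3 animals 137 genes had a 24 h cosine in control TA against 398, 94 against 206 differed among the times, 42 against 77 changed between successive times and 9 against 57 differed between TA and SOL. In BM3 animals alone the counts were 78 for the cosine, 7 for TA against SOL and 2 against 21 for mKO against control TA. Array weights gave 601 for time as a factor, 466 for successive changes and 102 for TA against SOL. Genes above the median level gave 169 successive changes and 114 genes for TA against SOL, and a trend with robust hyperparameters 121 successive changes. The spread of all 72 arrays gave 667 genes for the cosine and 472 for time as a factor, and the threshold of 0.01 gave 194 and 110. Leaving out single arrays gave 299 to 427 for the cosine, 144 to 244 for time as a factor, 38 to 128 for successive changes, 31 to 83 for TA against SOL and 18 to 26 for mKO against control TA. The cause of these shifts was not tested. For no named gene called in the main run did the fitted peak come closer to the opposite time of day in an alternative run. Genes not called in the main run, and the counts, were not judged for direction.

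With the replicate letter as a replicate block the counts were 420, 206, 66, 71 and 22 in the same order of tests. The letters do not pair the samples: same letters at different times had a median correlation of 0.024 (lowest -0.24, highest 0.46), 10 of 45 pairs exceeded 0.1, and 6 of 18 arrays correlated best with their own letter.

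Of 121 named genes 88 were called by the cosine, 36 of them under every alternative and 67 without any single array. With 3 arrays a time, small amplitudes are the least certain, and with 12 BM3 arrays and none of them at ZT12, differences that involve ZT12 are partly confounded with the series.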

Other observations

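Of the 986 probe sets without a gene name, 18 had a 24 h cosine in control TA at a limma adjusted p under 0.05, adjusted over the unnamed probe sets, and 94 had an unadjusted p under 0.05. With the time means in the model, the BM3 term itself was called for 0 of 20239 genes (limma), and 2229 had an unadjusted p under 0.05. Of the 398 genes called by the cosine, 5 carry model names and are not named. The same animal's SOL stood above the other ZT0 animals by a median of 0.45 over the 31 liver genes, beside 4.27 in its TA.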
